A study of Mus musculus with 20 samples.

Results

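Bone marrow neutrophils were examined for 10 genes that encode chains of growth factor, cytokine and interferon receptors: Csf3r, Csf2rb, Csf2rb2, Il6ra, Il4ra, Il10ra, Ifnar1, Ifnar2, Ifngr1 and Ifngr2. They were taken by gene symbol from the 24421 genes listed for every library, and all 10 were among the 14030 that passed the filter on low counts. The 20 libraries fall into 4 groups of 5: untreated WT, IMQ-treated WT, untreated Bmal1 Mye-/- and IMQ-treated Bmal1 Mye-/-. WT mice were C57BL/6J and were purchased. Breeding pairs of Bmal1 Mye-/- mice were made by crossing mutant lines and were kept at the authors' facility. Bmal1 Mye-/- mice, labelled KO, carried floxed alleles of the clock gene Bmal1 together with LysMCre, a Cre recombinase placed at the myeloid gene Lyz2, so the deletion was limited to cells that had switched on Lyz2. Neither genotype carried Cre without the floxed alleles. All mice were female. IMQ (imiquimod, an agonist of Toll-like receptor 7) was given to the ears as a 5% cream 3 times per week for 6 weeks from an age of 8 to 10 weeks, and the untreated groups received none. Neutrophils were enriched from marrow by magnetic removal of other cells. The labels number the libraries 1 to 5 within a group without tying them to animals, so the tests measure the spread between these libraries.

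Colony stimulating factors drive the production, survival and release of neutrophils. Csf3r is the receptor of G-CSF, and Csf2rb is the shared signalling chain for GM-CSF, interleukin 3 and interleukin 5, while its mouse neighbour Csf2rb2 serves interleukin 3. Interleukin receptors of the same class I fold sense interleukin 6 and interleukin 4, whereas the interleukin 10 and interferon receptors belong to class II. Each type of interferon needs a pair of chains, Ifnar1 with Ifnar2 for type I and Ifngr1 with Ifngr2 for type II, and all of these receptors signal through JAK kinases and STAT factors.

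The class I and class II chains were told apart in the reference by the WSXWS motif, a tryptophan and serine signature of the extracellular part of class I receptors. A search of the coding sequences of GENCODE M21 (build GRCm38) for TGG, a serine codon, any codon, TGG and a serine codon found 1 match in each of Csf3r, Csf2rb, Csf2rb2, Il6ra and Il4ra, and none in Il10ra, Ifnar1, Ifnar2, Ifngr1 or Ifngr2. The motif lay within a single coding exon in each of the 5 genes. The 39 bases around it are shown, read on the coding strand, because they mark the receptor class and show how near Csf2rb and Csf2rb2 are to each other. Capitals mark the motif.
Csf3r, chr4:126034518-126034556, plus strand: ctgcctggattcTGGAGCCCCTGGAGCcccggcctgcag
Csf2rb, chr15:78345504-78345542, plus strand: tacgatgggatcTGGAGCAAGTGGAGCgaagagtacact
Csf2rb2, chr15:78287904-78287942, minus strand: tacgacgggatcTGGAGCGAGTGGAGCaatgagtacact
Il6ra, chr3:89885918-89885956, minus strand: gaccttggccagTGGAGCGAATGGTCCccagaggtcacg
Il4ra, chr7:125571542-125571580, plus strand: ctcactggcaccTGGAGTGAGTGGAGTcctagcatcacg

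In GENCODE M21, Csf3r spans chr4:126024550-126044440 on the plus strand, Csf2rb2 chr15:78282507-78305721 on the minus strand and Ifnar1 chr16:91485238-91507441 on the plus strand. Csf2rb and Csf2rb2 lie 20.03 kb apart on chromosome 15, and their coding sequences were identical at 2503 of 2628 aligned bases (95.2%). Of all stretches of 50 bases in the exons of Csf2rb2, the length of Read 1, 18.4% were also found in Csf2rb, and 12.3% of those of Csf2rb in Csf2rb2. Reads from these stretches cannot be given to one gene, so the split of reads within this pair is uncertain. Of the stretches of Csf3r, 8.84% were also found in the gene model AC105061.2. Il4ra and Il6ra overlap an antisense gene over 8.44% and 2.29% of their stretches, and 7.89% of those of Ifnar2 were shared with the overlapping gene model Gm21970. The strand setting of the counting is not given in the sources used here. Ifnar2, Il10rb, Ifnar1 and Ifngr2 form 1 cluster of 193 kb on chromosome 16, and Il4ra lies 12.2 Mb from Bmal1 (Arntl) on chromosome 7.

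Promoters from RefSeq (GRCm38.p6) were matched by symbol for 8 of the 10 genes, and Csf2rb and Il10ra had no entry. Both strands of the 300 bases around each start site were searched for CACGTG, the E-box bound by Bmal1 and Clock, for TTCNNNGAA, the GAS element bound by STAT dimers, for GAAANNGAA, a core of the interferon-stimulated response element, and for GAGGAAGT, a site of the myeloid factor PU.1. Of all 32851 promoters in that table, 7.15% held the E-box, 8.3% the GAS element, 8.56% the interferon element and 3.2% the PU.1 site. Il6ra held an E-box that began 24 bases before the start site. A GAS element began 15 bases before the start of Csf2rb2, 5 before that of Ifnar1 and 214 before that of Ifnar2. Csf2rb2 also held a PU.1 site 27 bases after its start and Csf3r an interferon element 40 bases after it, while Il4ra, Ifngr1 and Ifngr2 held none of the 4. The 250 bases before and the first 10 from the start are shown for Csf2rb2 and Ifnar1, which changed with IMQ and held a match there, and for Il6ra, the 1 of the 8 with an E-box, with the matches in capitals. These are matches of letters, not measured binding.
Csf2rb2, chr15:78305712-78305971, minus strand: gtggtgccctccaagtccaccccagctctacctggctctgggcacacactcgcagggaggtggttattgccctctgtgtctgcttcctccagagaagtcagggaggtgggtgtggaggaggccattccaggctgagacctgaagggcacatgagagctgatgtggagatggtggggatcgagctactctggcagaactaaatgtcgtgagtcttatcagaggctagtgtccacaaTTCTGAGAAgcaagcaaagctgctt
Ifnar1, chr16:91484965-91485224, plus strand: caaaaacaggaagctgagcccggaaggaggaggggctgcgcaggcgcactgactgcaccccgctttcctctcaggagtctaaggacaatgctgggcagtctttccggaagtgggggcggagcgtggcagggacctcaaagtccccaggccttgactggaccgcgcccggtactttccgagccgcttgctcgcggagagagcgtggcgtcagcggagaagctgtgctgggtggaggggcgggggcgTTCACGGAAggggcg
Il6ra, chr3:89913187-89913446, minus strand: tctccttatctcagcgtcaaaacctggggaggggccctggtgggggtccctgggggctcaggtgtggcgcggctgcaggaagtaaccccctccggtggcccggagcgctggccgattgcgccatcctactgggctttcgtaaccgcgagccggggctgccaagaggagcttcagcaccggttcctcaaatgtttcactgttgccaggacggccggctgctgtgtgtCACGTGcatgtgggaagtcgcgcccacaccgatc

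Each library held 30782166 to 92613500 reads on genes, and the member with the fewest reads, Il10ra, had 760 to 4009. Arntl, which encodes Bmal1, had 0.895 to 1.71 CPM (counts scaled to a common library size with TMM factors) in untreated WT, 0.561 to 1.87 in IMQ-treated WT, 0.468 to 1.10 in untreated Bmal1 Mye-/- and 0.337 to 1.52 in IMQ-treated Bmal1 Mye-/-, so the genotypes overlapped at this low level. These counts cover the whole gene and not the deleted part alone. The 11 neutrophil markers listed summed to 72531 CPM, in IMQ-treated Bmal1 Mye-/- library 1, to 156745 CPM, whereas Ly6g was not analysed here. The first principal component held 35.0% of the variance. On it IMQ-treated WT library 5 and IMQ-treated Bmal1 Mye-/- library 2 lay among the untreated libraries. The latter lay at -10.7, between untreated Bmal1 Mye-/- library 3 at -7.63 and untreated WT library 1 at -14.5. On the second component it lay at -43.5, outside the untreated range of -37.8 to 45.3. Some of the results that rest on these 2 libraries are also given without them. Both libraries were picked for their likeness to untreated ones on the first component. Leaving them out therefore favours larger differences between treated and untreated groups. A stronger value without them is therefore no independent support.

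Per base of exon, Csf3r was the most abundant of the 10 in every group. Its mean in untreated WT was 722 ± 87.2 RPKM (CPM per kilobase of exon, SD, n = 5). Csf2rb followed with 57.9 ± 5.19, Ifngr2 with 41.2 ± 4.62, Ifnar2 with 34.4 ± 1.09 and Ifngr1 with 33.5 ± 2.52. The range of Ifnar2 in untreated WT, 33.0 to 35.5 RPKM, lay inside that of Ifngr1, 30.6 to 36.5 RPKM, so their order was not larger than the spread. Il4ra had 28.8 ± 2.28 RPKM, and its range of 26.3 to 31.1 RPKM overlapped that of Ifngr1. Ifnar1 had 19.3 ± 1.78 RPKM and Il6ra 17.9 ± 3.59, and these 2 overlapped. Csf2rb2 with 10.6 ± 1.43 and Il10ra with 8.07 ± 3.45 were the least abundant and also overlapped.

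**Figure D1:**
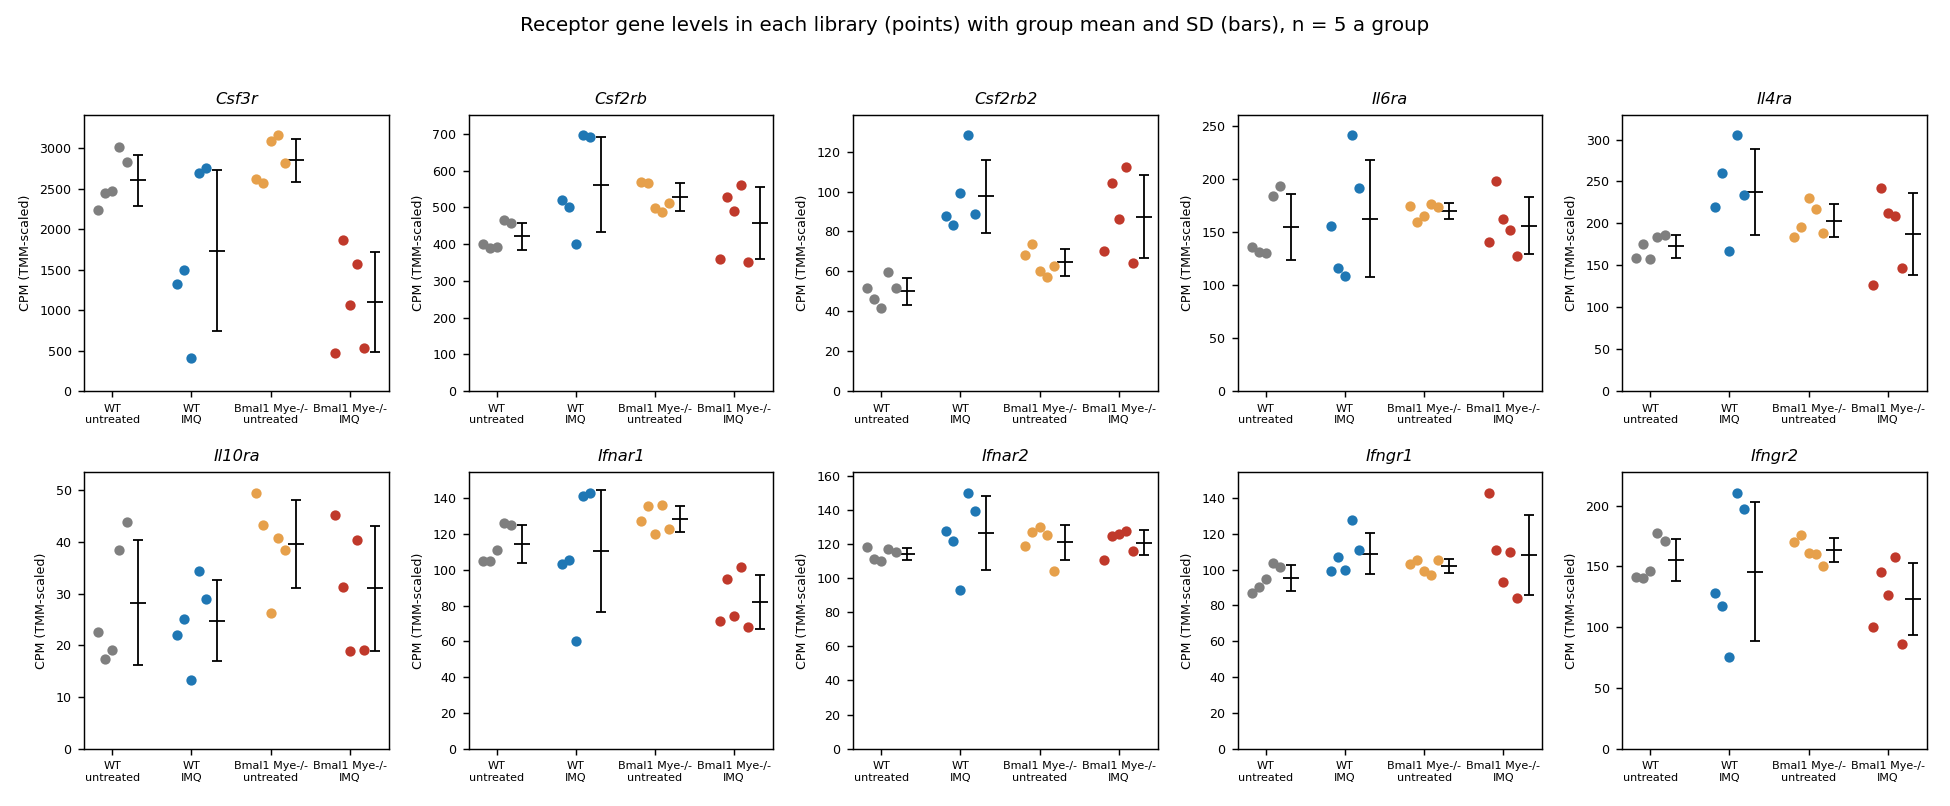
Level of each receptor gene in CPM (TMM-scaled, linear axis from 0) in the 20 libraries, 1 panel per gene. Points are libraries in the order of their numbers, and the bar beside them is the group mean with SD (n = 5). Csf3r and Ifnar1 are lower in every IMQ-treated than in every untreated Bmal1 Mye-/- library, and Csf2rb2 is higher in every IMQ-treated than in every untreated WT library.

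In WT neutrophils, IMQ was compared with no treatment to ask which of these genes change with 6 weeks of Toll-like receptor stimulation. Csf2rb2 rose 1.95-fold and was the only member that passed the test, and no member fell. Across all genes tested, 2.34% rose and 1.6% fell in this comparison. A call throughout means an adjusted p below 0.05 in the quasi-likelihood test of edgeR, with the p-values adjusted over the 14030 genes by the Benjamini-Hochberg method. In Bmal1 Mye-/- neutrophils, where the same comparison was made, Csf2rb2 rose 1.36-fold, and Csf3r and Ifnar1 fell to 0.385 and 0.639 of their untreated levels. Here 14.4% of all tested genes rose and 9.04% fell, so 1 member higher and 2 lower of 10 are close to these shares and are no result about the members as a set. The median log2 fold change of the 10 members was 0.11 in WT and -0.16 in Bmal1 Mye-/-, beside 0.03 and 0.02 for all tested genes. Both genotypes were also compared directly, and no member passed in untreated mice, with IMQ, or in the interaction of genotype and treatment.

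**Figure D2:**
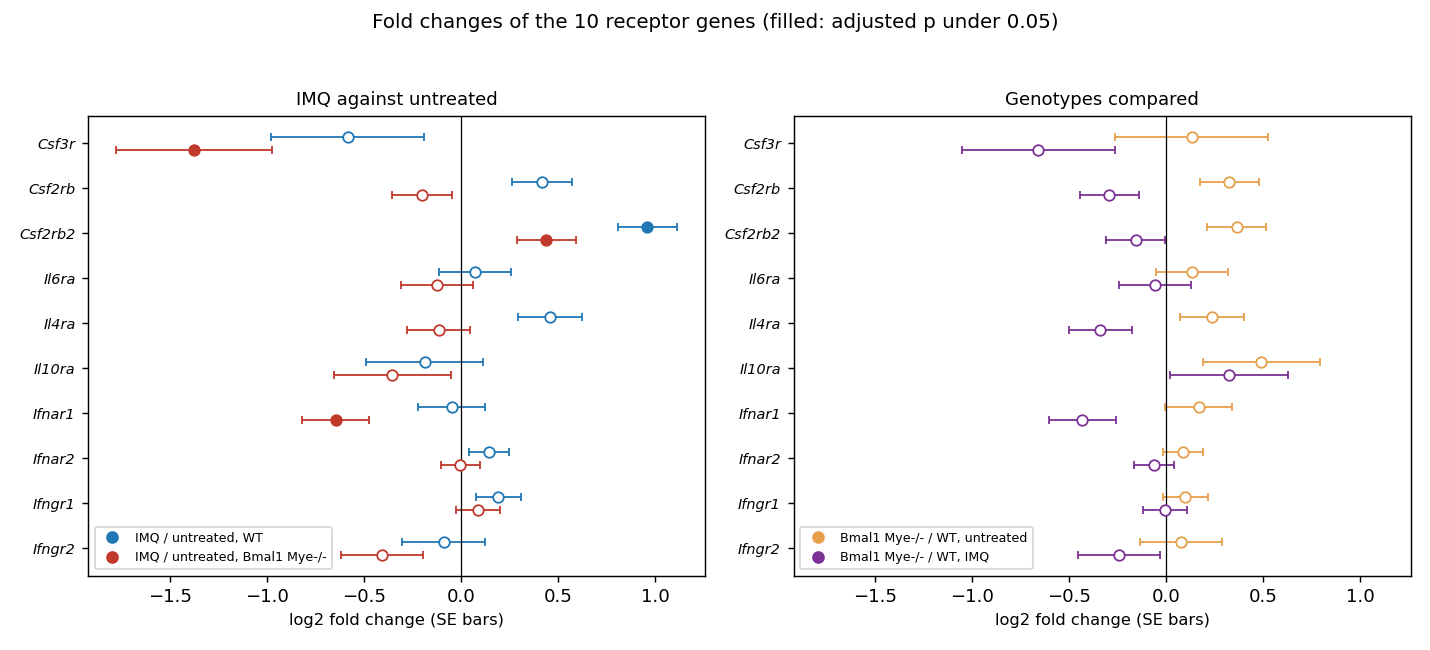
Log2 fold change of each receptor gene with its standard error, for IMQ against untreated in each genotype (left) and for Bmal1 Mye-/- against WT in each treatment (right). Filled points have an adjusted p under 0.05. Csf2rb2 is filled in both genotypes at 0.96 and 0.44, Csf3r and Ifnar1 are filled in Bmal1 Mye-/- alone at -1.38 and -0.65, and no point is filled on the right.

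Csf2rb2, the interleukin 3 receptor chain, had 51.6, 46.3, 41.4, 59.5 and 51.8 CPM in untreated WT libraries 1 to 5. With IMQ the WT libraries had 87.8, 83.5, 99.2, 128 and 88.9 CPM. The lowest treated library therefore lay above the highest untreated one. The mean went from 50.1 ± 6.77 to 97.5 ± 18.2 CPM (SD, n = 5 each), a log2 fold change of 0.96 ± 0.15 (SE, adjusted p = 0.00690). Groups that do not overlap were found for 6.43% of all tested genes in this comparison, and for 1 of the 10 members. Without each library in turn the log2 fold change was 0.83 to 1.03, and it stayed past the threshold in all 30 alternatives.

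The same gene rose less far in Bmal1 Mye-/-. Its untreated libraries had 68.4, 73.9, 60.1, 57.1 and 62.9 CPM, and the IMQ-treated ones 70.4, 105, 86.0, 112 and 64.3 CPM. Treated libraries 1 and 5 lay within the untreated range. The log2 fold change was 0.44 ± 0.15 (adjusted p = 0.0438). This call was lost in 13 of 30 alternatives, among them DESeq2 (adjusted p = 0.0580) and the fit without the 2 libraries that lay among the untreated (adjusted p = 0.0786). Leaving out untreated library 1, 3, 4 or 5 or treated library 2, 3 or 4 of this genotype also ended it, and over all 20 libraries left out in turn the log2 fold change was 0.35 to 0.53, with an adjusted p of up to 0.105. The difference between the genotypes' responses was -0.52 ± 0.21 on the log2 scale, with an unadjusted p of 0.0252 and an adjusted p of 0.640.

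Csf3r, through which G-CSF sustains granulopoiesis, had 2618, 2574, 3092, 3166 and 2814 CPM in untreated Bmal1 Mye-/- libraries 1 to 5. The IMQ-treated libraries of this genotype had 476, 1865, 1058, 1569.9 and 529 CPM. Every treated library was below every untreated one, and libraries 1 and 5 were the lowest. The log2 fold change was -1.38 ± 0.40 (adjusted p = 0.0223). Groups that do not overlap were found for 20.1% of all tested genes in this comparison and for 2 members, Csf3r and Ifnar1. Leaving out treated library 1 or 5, or untreated library 4, took the adjusted p to 0.0544, 0.0598 and 0.0510, with log2 fold changes of -1.17, -1.20 and -1.34. Without the 2 libraries that lay among the untreated it was -1.63 (adjusted p = 0.00784). Treated library 2, 1 of these 2, had the highest Csf3r of its group, so a larger fall without it was built into that choice.

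Csf3r did not pass in WT. The libraries had 2243, 2451, 2474, 3021 and 2831 CPM untreated and 1318, 1502, 409, 2702 and 2754 CPM with IMQ. Treated libraries 1, 2 and 3 lay below the untreated range, while libraries 4 and 5 lay inside it. The coefficient of variation was 12.1% in untreated and 57.3% in IMQ-treated WT, beside 9.43% and 56.1% in Bmal1 Mye-/-. The log2 fold change was -0.58 ± 0.40 (adjusted p = 0.409), and its 95% interval ran from -1.36 to 0.19. The responses of the genotypes differed by -0.79 ± 0.56 (adjusted p = 0.640).

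Csf2rb, the shared chain of the GM-CSF, interleukin 3 and interleukin 5 receptors, passed in no comparison. It had 401, 388, 391, 465 and 459 CPM in untreated WT and 519.8, 502, 399.9, 697 and 692 CPM in IMQ-treated WT. Only treated library 3 lay within the untreated range. The log2 fold change was 0.42 ± 0.15 (adjusted p = 0.115). In Bmal1 Mye-/- the untreated libraries had 570.3, 566, 499, 488 and 513 CPM and the treated ones 359.7, 529.5, 490.4, 562 and 351 CPM, with a log2 fold change of -0.20 ± 0.15. The interaction of genotype and treatment was -0.62 ± 0.22 with an unadjusted p of 0.0103, and its adjusted p was 0.640.

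Among the interleukin receptor chains no member passed the test. Il4ra, the alpha chain of the interleukin 4 receptor, had 158 to 187 CPM in untreated WT (median 176) and 167 to 305 CPM with IMQ (median 234), a log2 fold change of 0.46 ± 0.16 (adjusted p = 0.104). In Bmal1 Mye-/- it had 184 to 230.2 CPM untreated and 126 to 243 CPM with IMQ, and the log2 fold change was -0.12 ± 0.16. The interaction of -0.58 ± 0.23 had an unadjusted p of 0.0224 and an adjusted p of 0.640. Il6ra, the binding chain of the interleukin 6 receptor, spanned 129.8 to 193 CPM in untreated WT, 109 to 241 in IMQ-treated WT, 159 to 176 in untreated Bmal1 Mye-/- and 127 to 198 in IMQ-treated Bmal1 Mye-/-. Its log2 fold changes with IMQ were 0.07 ± 0.19 in WT and -0.12 ± 0.19 in Bmal1 Mye-/-, with 95% intervals of -0.29 to 0.43 and -0.49 to 0.24. Il10ra, the ligand-binding chain of the anti-inflammatory interleukin 10 receptor, was the lowest of the 10 and spanned 17.4 to 43.8, 13.3 to 34.4, 26.3 to 49.5 and 18.9 to 45.3 CPM in the same order of groups. All 4 ranges overlapped, and the 95% intervals of its log2 fold change with IMQ, -0.78 to 0.40 in WT and -0.95 to 0.24 in Bmal1 Mye-/-, were the widest after those of Csf3r.

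Type I interferon receptor chains differed from each other in Bmal1 Mye-/-. Ifnar1, the chain that carries the kinase Tyk2, had 128, 136, 120.3, 136 and 123 CPM in untreated Bmal1 Mye-/- and 71.6, 94.9, 74.1, 102 and 67.8 CPM with IMQ. The highest treated library lay below the lowest untreated one. The log2 fold change was -0.65 ± 0.17 (adjusted p = 0.0159), and it passed in all 30 alternatives. Ifnar2, the high-affinity chain that carries Jak1, had 119, 127, 130.1, 126 and 104 CPM untreated and 111, 125, 126, 128 and 116 CPM treated. These ranges overlapped almost wholly, and the log2 fold change was -0.0036 ± 0.10 with a 95% interval of -0.20 to 0.20.

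WT neutrophils had 105, 105, 111, 126 and 125 CPM of Ifnar1 untreated and 103, 106, 60.1, 141 and 143 CPM with IMQ. Library 3 was the lowest by far and libraries 4 and 5 were above all untreated ones, and the log2 fold change was -0.05 ± 0.17 (adjusted p = 0.905). Ifnar2 in WT went from 109.9 to 118 CPM untreated to 92.9 to 150.2 CPM with IMQ, a log2 fold change of 0.14 ± 0.10. With IMQ, Ifnar1 differed between Bmal1 Mye-/- and WT by -0.43 ± 0.17 on the log2 scale without passing (unadjusted p = 0.0218, adjusted p = 0.225). Without IMQ-treated WT library 3 this difference was -0.58 and passed (adjusted p = 0.0143), so 1 library decided it. The calls among all tested genes went from 41 to 3129 without that library.

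Both chains of the interferon gamma receptor stayed short of the threshold. Ifngr1, the ligand-binding chain, spanned 87.0 to 104 CPM in untreated WT and 98.9 to 128 CPM with IMQ, and 97.0 to 106 and 84.3 to 143 CPM in Bmal1 Mye-/-. Its log2 fold changes were 0.19 ± 0.11 and 0.09 ± 0.11. Treated Bmal1 Mye-/- library 1, at 143 CPM, was the highest of all 20 libraries for this gene. Ifngr2, the chain that recruits Jak2, spanned 141 to 177 CPM in untreated WT and 75.0 to 211 CPM with IMQ, and 150.3 to 175 and 86.3 to 157 CPM in Bmal1 Mye-/-. Its log2 fold changes were -0.09 ± 0.21 (adjusted p = 0.850) and -0.41 ± 0.21 (adjusted p = 0.159).

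Untreated mice were compared between genotypes to see whether these receptors differed without IMQ. Loss of Bmal1, Cre and the source of the mice differed together, so they cannot be told apart here. In untreated mice all 10 members had a positive difference of Bmal1 Mye-/- over WT, from 0.07 for Ifngr2 to 0.49 for Il10ra on the log2 scale, and this sign held in every alternative run. None passed (each adjusted p = 1), and none passed with DESeq2 or limma. Of all tested genes 0.207% passed in this comparison, and 6830 of 14030 had a positive difference. Csf2rb and Csf2rb2 had unadjusted p-values of 0.0480 and 0.0270 with differences of 0.32 ± 0.15 and 0.36 ± 0.15. The lowest untreated Bmal1 Mye-/- library of Csf2rb, 488 CPM, lay above the highest untreated WT library, 465 CPM. Csf2rb was the 1 member whose groups did not overlap here, beside 1.52% of all tested genes.

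With IMQ, 9 of the 10 members were lower in Bmal1 Mye-/- than in WT, with Il10ra as the exception at 0.32 ± 0.30, and 1 had an unadjusted p under 0.05. With library size alone, without TMM factors, Csf2rb2, Il6ra, Ifnar2 and Ifngr1 turned positive as well. The median of the members was -0.20, beside 0.03 for all genes tested. Of these 14030 genes 6574 were lower and 2788 had an unadjusted p under 0.05. Member pairs had residual correlations of 0.05 to 0.96 around the group means, so the signs of the 10 members are not independent. Of all tested genes 0.292% passed, and 1.07% had groups that did not overlap, a pattern no member showed. DESeq2 and limma also called no member. Csf3r had the largest difference, -0.66 ± 0.40 (adjusted p = 0.310). The interaction of genotype and IMQ was negative for all 10 members, from -0.79 for Csf3r to -0.11 for Ifngr1. With library size alone it was positive for Il6ra, Il10ra, Ifnar2 and Ifngr1. Over all tested genes the interaction was negative for 6849 of 14030. Csf2rb, Csf2rb2, Il4ra and Ifnar1 had an unadjusted p under 0.05, and no member passed, nor did any of the 14030 genes (0% called, with 721 genes at an unadjusted p under 0.05 and 0 called by DESeq2 or limma).

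A ratio of 2 chains within a library does not depend on library size, so the reads of 3 pairs were compared in this way by two-sided exact permutation tests over the 252 splits of 10 libraries, for which 0.00794 is the smallest p possible, with adjustment over 12 tests. In untreated WT there were 12.8, 11.9, 10.6, 12.8 and 11.3 reads of Csf2rb2 per 100 of Csf2rb, and with IMQ 16.9, 16.6, 24.8, 18.4 and 12.8. All but library 5 of the treated group lay above the untreated range. The log2 ratio differed by 0.56 (exact p = 0.0159, adjusted p = 0.0476). In Bmal1 Mye-/- the values were 11.99, 13.1, 12.05, 11.7 and 12.3 untreated and 19.6, 19.7, 17.5, 19.95 and 18.3 with IMQ. These groups did not overlap, and the log2 ratio differed by 0.64 (exact p = 0.00794, adjusted p = 0.0476). Between genotypes the log2 ratio differed by 0.04 untreated and by 0.12 with IMQ (exact p = 0.540 and 0.524, adjusted p = 0.648 for both). The call in WT was lost when any 1 of untreated libraries 2 to 5 was left out (adjusted p = 0.0714 each time).

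**Figure D3:**
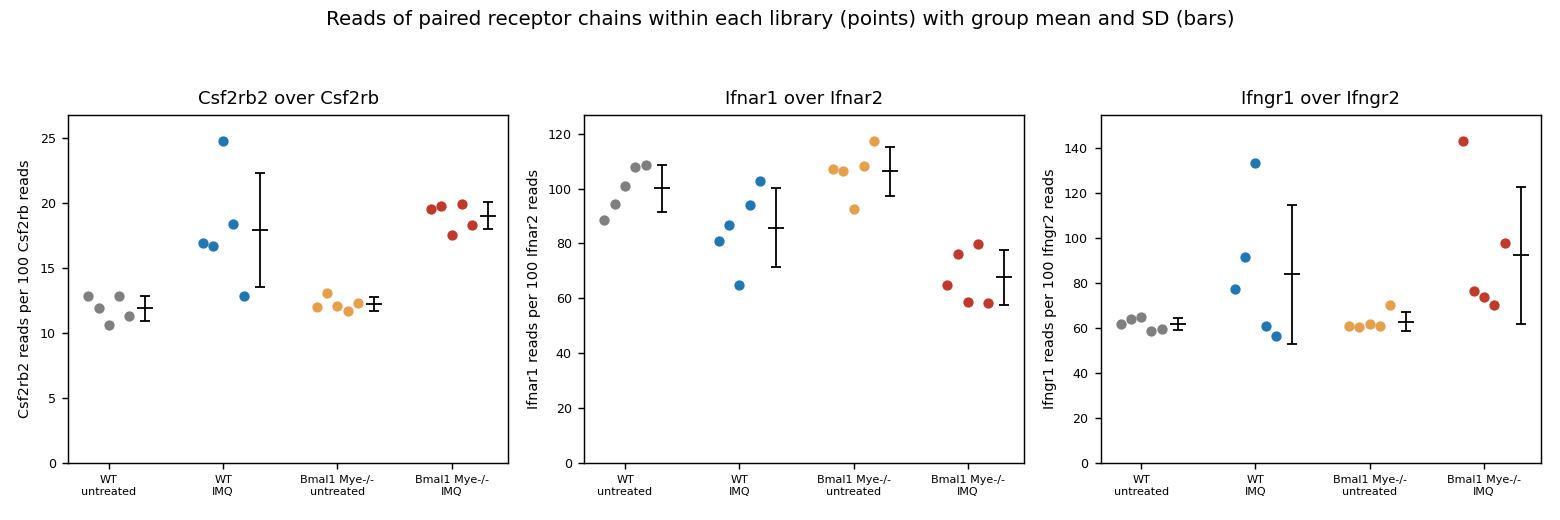
Reads of one chain per 100 reads of its partner in each library (points, linear axis from 0), with the group mean and SD beside them (n = 5). For Csf2rb2 over Csf2rb the IMQ-treated Bmal1 Mye-/- libraries sit between 17.5 and 19.95, above the untreated ones at 11.7 to 13.1, and for Ifnar1 over Ifnar2 they sit between 58.4 and 79.8, below 92.5 to 118.

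Ifnar1 had 107, 106, 92.5, 108 and 118 reads per 100 of Ifnar2 in untreated Bmal1 Mye-/- and 64.7, 76.1, 58.8, 79.8 and 58.4 with IMQ. No treated library reached the untreated range, and the log2 ratio differed by -0.66 (exact p = 0.00794, adjusted p = 0.0476). In WT the ratio was 88.7, 94.4, 101, 108 and 109 untreated and 80.9, 86.6, 64.7, 94.0 and 103 with IMQ, a difference of -0.24 that did not pass (exact p = 0.0873, adjusted p = 0.175). Between the IMQ-treated genotypes it was -0.34 (exact p = 0.0476, adjusted p = 0.114), and -0.44 without WT library 3 (adjusted p = 0.0381). Ifngr1 had 60.2 to 70.2 reads per 100 of Ifngr2 in untreated and 69.9 to 143 in treated Bmal1 Mye-/-, a log2 difference of 0.50 (exact p = 0.0159, adjusted p = 0.0476). Treated library 1 alone held the value of 143, and without it the difference was 0.33 (adjusted p = 0.0714). Leaving out any 1 untreated library of this genotype also ended the call, at adjusted p-values of 0.0714 to 0.114. The WT values of 58.6 to 64.7 untreated and 56.3 to 133 with IMQ differed by 0.37 (exact p = 0.151, adjusted p = 0.259). Same-numbered Bmal1 Mye-/- libraries deviated together, though no label pairs them. The 3 ratios with IMQ in this genotype were therefore also tested within the 5 same-numbered pairs by exact sign flips, where the smallest p is 0.0625. All 3 had an adjusted p of 0.125.

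Partner chains that complete the receptors were described as well, from a list of 40 further cytokine receptor genes of which 32 were tested. In WT 1 of the 32 rose and 2 fell with IMQ, and in Bmal1 Mye-/- 3 rose and 3 fell, with medians of 0.04 and -0.10. Across all tested genes, 2.34% rose and 1.6% fell in WT, and 14.4% rose and 9.04% fell in Bmal1 Mye-/-. The counts are a description and no result about the list as a set. Il3ra, the specific chain of the interleukin 3 receptor, rose in Bmal1 Mye-/- from 16.1, 16.8, 16.7, 17.7 and 16.4 to 45.2, 23.0, 37.6, 35.7 and 51.1 CPM, with a log2 fold change of 1.20 ± 0.24 (adjusted p = 0.00556). No libraries overlapped. In WT it went from 13.6 to 17.3 CPM to 18.3 to 50.6 CPM, a log2 fold change of 0.84 ± 0.23 just short of the threshold (adjusted p = 0.0505). It passed there in 7 of 30 alternatives, among them DESeq2 (adjusted p = 0.0112) and the fit without the 2 libraries that lay among the untreated (0.94, adjusted p = 0.00677). The latter fit left out libraries picked for their likeness to untreated ones, so it is no independent support. Il2rg, the common gamma chain that pairs with Il4ra, rose in Bmal1 Mye-/- by 0.85 ± 0.21 (adjusted p = 0.0111), and its WT value was 0.62 ± 0.21 (adjusted p = 0.0889). Il10rb, shared by the interleukin 10 receptor and others, fell in Bmal1 Mye-/- with a log2 fold change of -0.49 ± 0.15 (adjusted p = 0.0300, lost in 10 of 30 alternatives) and had -0.15 ± 0.15 in WT. Csf2ra, the GM-CSF binding chain, and Il13ra1, the other partner of Il4ra, did not pass, with log2 fold changes of -0.02 ± 0.17 and 0.79 ± 0.29 in WT and of -0.21 ± 0.17 and 0.08 ± 0.29 in Bmal1 Mye-/-.

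**Figure D4:**
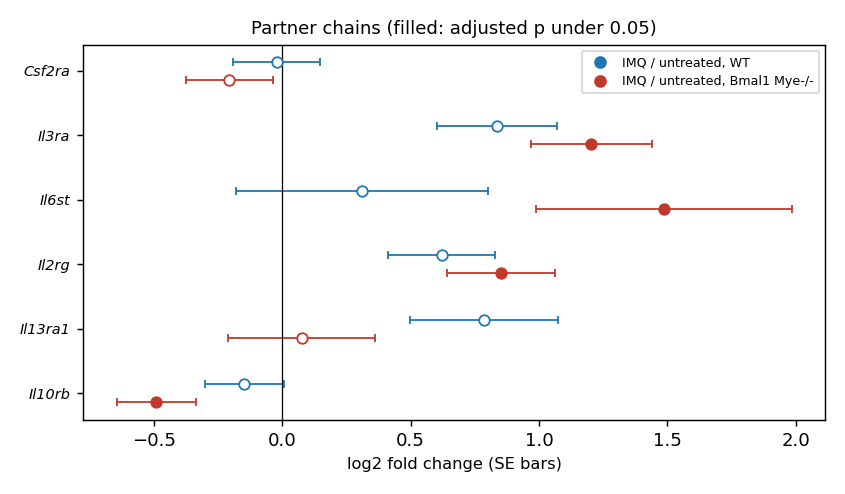
Log2 fold change with IMQ of 6 chains that pair with the receptor genes, with standard errors, in WT and Bmal1 Mye-/-. Filled points have an adjusted p under 0.05. Il3ra, Il6st and Il2rg are filled above 0 and Il10rb below 0 in Bmal1 Mye-/-, and no WT point is filled.

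Il6st, the signalling chain gp130 that joins Il6ra, had a rise in Bmal1 Mye-/- that rested on few libraries. Its untreated values were 9.24, 9.83, 3.57, 4.29 and 4.57 CPM and its treated ones 49.98, 20.8, 6.48, 6.06 and 5.30 CPM. Only treated libraries 1 and 2 exceeded the untreated range. The log2 fold change of 1.49 ± 0.50 passed (adjusted p = 0.0384), but was 0.62 without treated library 1 (adjusted p = 0.249) and 1.25 with the replicate number as a block (adjusted p = 0.0660). The other genes of the list that passed were Il17ra, an interleukin 17 receptor chain, at -0.63 ± 0.21 in Bmal1 Mye-/-, the leptin receptor Lepr at -1.57 ± 0.43 in WT and -1.43 ± 0.43 in Bmal1 Mye-/-, Il20rb at 1.65 ± 0.45 in WT and the prolactin receptor Prlr at -3.31 ± 0.81 in WT. Prlr was at or under 1.68 CPM in every library. With each of 20 libraries left out in turn, Il20rb in WT, Lepr in WT and Il17ra in Bmal1 Mye-/- kept their calls in only 5 of 20 fits each, Prlr in 11 and Lepr in Bmal1 Mye-/- in 17.

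Downstream of the receptors, 11 JAK and STAT genes were tested. Jak3, the kinase that binds the common gamma chain, rose in both genotypes. It spanned 27.2 to 31.5 CPM in untreated and 51.7 to 64.3 CPM in IMQ-treated WT, a log2 fold change of 1.03 ± 0.11 (adjusted p = 0.000154), and 32.9 to 49.8 and 62.1 to 83.9 CPM in Bmal1 Mye-/-, with 0.77 ± 0.11 (adjusted p = 0.00224). Neither genotype's groups overlapped, and both calls held in all 30 alternatives. Jak3 was also higher in untreated Bmal1 Mye-/- than in untreated WT by 0.56 ± 0.11 (adjusted p = 0.0258), a call lost in 16 of 30 alternatives. In Bmal1 Mye-/- Jak1, Stat4 and Stat6 fell with IMQ, by 0.60, 0.77 and 0.44 on the log2 scale (adjusted p = 0.0470, 0.0397 and 0.0372). Each of these calls was lost without treated library 1. In the same order, they were lost in 20, 13 and 17 of 30 alternatives. With each of 20 libraries left out in turn, they were kept in only 3, 8 and 5 fits. Stat3, Stat5a and Stat5b, which carry G-CSF and GM-CSF signals, had log2 fold changes of -0.23, -0.22 and -0.36 there and did not pass. Of 12 ligand genes only Csf1 and Il10 were tested, and Csf1, the ligand of the macrophage receptor Csf1r, fell in Bmal1 Mye-/- by 1.31 on the log2 scale (adjusted p = 0.0261), a call lost without untreated library 4 or 5 or treated library 1, 3 or 5 of this genotype.

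The same libraries differed in other marker genes. In Bmal1 Mye-/- with IMQ, 8 of 10 cell cycle genes rose and 2 of 10 late neutrophil genes fell, beside 14.4% and 9.04% of all tested genes. All 10 late neutrophil genes had a negative log2 fold change, beside 6760 of the 14030 tested. Of the 10, 7 had an unadjusted p under 0.05, beside 5518 of the 14030 in either direction. The summed cell cycle level was 400.1 to 708 CPM in untreated and 1164 to 2677 CPM in treated libraries of this genotype, and the late neutrophil sum 23819.9 to 30002 and 5394 to 23117 CPM. Treated libraries 1 and 5, the lowest for both Csf3r and Ifnar1, had cell cycle sums of 2569 and 2677 CPM and late neutrophil sums of 5394 and 11485 CPM. In WT, treated library 3, the lowest for both genes, had a cell cycle sum of 2564 CPM and a late neutrophil sum of 8597 CPM, beside 473 to 1208 and 23669 to 30889.7 CPM in the other 4. Bulk RNA cannot tell fewer cells of a type from less RNA per cell, and the part of maturation state in these results was not tested.

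Markers of other cell types were also compared. With IMQ in Bmal1 Mye-/-, 14.4% of all tested genes rose and 9.04% fell, and between the treated genotypes 0.292% passed. Of 10 monocyte and macrophage genes 5 rose with IMQ in Bmal1 Mye-/-, and the list's sum was 814 to 1024 CPM untreated and 655 to 2447 CPM treated, the highest in library 1, which also had the highest Ifngr1 and Il6st. Of 9 B lineage genes tested 3 fell there, with sums of 36.2 to 122 CPM untreated and 13.3 to 49.6 CPM treated. The eosinophil list, whose cells carry Csf2rb and Il5ra, summed to 48.9 to 142 CPM untreated and 43.5 to 211 CPM treated, with 1 of 8 genes lower. In WT its sum was 37.8 to 122 CPM untreated and 21.5 to 42.4 CPM with IMQ. There 2 of 8 genes fell with IMQ, beside 1.6% of all tested genes. Between the treated genotypes 3 of 8 genes differed, all of them higher in Bmal1 Mye-/-. With IMQ against untreated in Bmal1 Mye-/-, 0 of the 8 were called higher. The globin genes Hba-a1, Hbb-bt and Hbb-bs were listed at 0 in all 20 libraries, and Cd3e was at 0 in 4 libraries. The part of these cells in the receptor values was not tested.

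The genes whose levels over the 20 libraries most resembled each member are given as a description, by Pearson's r of log2 CPM, with no test, since all points share group and library effects. Csf3r resembled Zfp831 (r = 0.989), Peg13 and Tlr5, the flagellin receptor, and the residual correlations around the group means were 0.978 to 0.984. Ifngr2 resembled Crlf3, Fanca and Tbx6 (r = 0.973 to 0.979), and Ifnar1 resembled Usp19, Sema4d and Nbr1 (r = 0.966 to 0.976). For Csf2rb the nearest gene was Stat3 (r = 0.941), followed by Sbno2 and Mcam, and for Il4ra it was its partner Il13ra1 (r = 0.911), followed by N4bp1. Il6ra was nearest to Soat1, Mbnl2 and BC005537 (r = 0.897 to 0.910), Il10ra to Ndufaf7, Tnfrsf1b and Map3k1 (r = 0.827 to 0.847), Ifnar2 to Sec24b, Cacul1 and Tbl1xr1 (r = 0.822 to 0.862) and Ifngr1 to Fgd2, Ptpro and Nfatc2 (r = 0.812 to 0.854). Csf2rb2 was nearest to Scamp1, Acvr1b and Wfdc17 (r = 0.865 to 0.875), and here the residual correlations were lower, at 0.612 to 0.690.

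Among the members themselves, Csf3r, Ifnar1 and Ifngr2 varied together over the 20 libraries, with r of 0.936 for Csf3r and Ifnar1, 0.927 for Ifnar1 and Ifngr2 and 0.908 for Csf3r and Ifngr2, and residual correlations of 0.928 to 0.953. The 3 genes lie on 2 chromosomes, and the last 2 of them within the cluster on chromosome 16. The lowest value was that of Csf3r and Csf2rb2, at -0.30 over all libraries and 0.49 around the group means.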

How the data were processed

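Labels gave the genotype, treatment and number of each bulk RNA-seq library of mouse bone marrow neutrophils. The authors deposited raw read counts per gene for each library, without normalization. The submitters' processing notes name bcl2fastq, STAR 2.7.8a, HTSeq 2.0.1 and mm10, while the study's methods name another aligner for Read 1. The annotation and the strand setting are not given in the sources used here, nor which of 2 sequencers ran a library, so no batch could be set up. Reads on no feature made up 51.9% to 57.8% of a library and stayed out of all fits. All fits ran in R 4.3.3, the main one with edgeR 4.0.16 (TMM factors, filterByExpr, quasi-likelihood test, 1 fit of 4 groups, prior count of 2 for log2 CPM), with Benjamini-Hochberg adjustment over 14030 genes and a threshold of 0.05. Standard errors came from the quasi-likelihood F statistic. RPKM used exon lengths of GENCODE M21. The fit was checked on simulated counts. Same-group libraries differed by far more than counting error (chi-square over degrees of freedom of 16.9 to 731), so none was a duplicate of another in its group. Libraries of different groups were not compared in this way.

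The members, gene lists, tests and alternatives were chosen with earlier results of these data known. Named were all 10 members, the partner chains, at most 6 called genes per list and comparison, and the 3 genes most like each member (1 of these is not reported here). Same-numbered libraries of IMQ-treated and untreated Bmal1 Mye-/- deviated together (residual correlations of 0.128 to 0.426 in 5 of 5 pairs), so the numbers were treated as possible pairs there. The labels state no such pairing, and correlations of differently numbered libraries were not computed for comparison. The main tests are unpaired. In the other comparisons not all 5 correlations exceeded 0.1. Alternatives were RLE factors, library size alone, DESeq2 1.42.0, limma 3.58.1 on log2(CPM + 0.1), no filter, at least 10 counts in every library, only the 2 groups compared, counts thinned to the smallest library, the replicate block, the removal of the 2 libraries that lay among the untreated, and each of 20 libraries left out in turn. The CPM given to limma were scaled by library size without TMM factors. Library size alone, and the alternatives for genes other than the members, were added after seeing the data.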

Additional observations from a re-analysis of the deposited data

Results flagged for a closer look

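Of 52 sets of 5 libraries examined (10 genes and 3 ratios in 4 groups), 1 held a library far from the others, where chance alone gives about 1 in 20. In untreated Bmal1 Mye-/-, library 5 had 70.2 reads of Ifngr1 per 100 of Ifngr2, and the other 4 had 60.2 to 61.5. Without this library the difference between the untreated genotypes in the log2 ratio was -0.02 in place of 0.02, and neither value passed the exact permutation test.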

How the results depend on the processing

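The 3 members called with IMQ in Bmal1 Mye-/- were 3 in 15 of 30 alternatives, 2 in 14 and 1 in 1, while the 1 member called in WT stayed at 1 in all 30. Leaving out single libraries gave 1 to 3 members with IMQ in Bmal1 Mye-/-, 1 of them (Ifnar1) without untreated library 4, and 0 to 1 between the IMQ-treated genotypes. Of 1490 refitted log2 fold changes of members, 1412 kept their direction and side of the threshold, 16 lost their call, 1 gained one and 61 changed sign, none of which was called in the main fit. With library size alone the median of all genes shifted by 0.13 for IMQ in Bmal1 Mye-/-, by 0.20 between the treated genotypes and by 0.19 in the interaction, and with limma by 0.19 and 0.17 in the last 2.

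With library size alone, the values that changed sign were Il6ra in WT at -0.0090, Ifnar2 with IMQ in Bmal1 Mye-/- at 0.12, Csf2rb2, Il6ra, Ifnar2 and Ifngr1 between the treated genotypes at 0.017, 0.16, 0.15 and 0.22, and Il6ra, Il10ra, Ifnar2 and Ifngr1 in the interaction at 0.0068, 0.064, 0.054 and 0.11. With limma they were Il6ra in WT at -0.036, Ifnar2 in Bmal1 Mye-/- at 0.12, Csf2rb2, Il6ra, Ifnar2, Ifngr1 and Ifngr2 between the treated genotypes at 0.022, 0.18, 0.15, 0.17 and 0.012, and Il6ra, Ifnar2 and Ifngr1 in the interaction at 0.017, 0.055 and 0.056. Ifnar2 with IMQ in Bmal1 Mye-/- was also positive with no filter at 0.010, with only the 2 groups compared at 0.0072, with thinned counts at 0.00079 and without the 2 libraries among the untreated at 0.010. Ifngr1 between the treated genotypes was 0.011 with at least 10 counts in every library, 0.0032 with only the 2 groups, 0.038 thinned and 0.0017 without the 2 libraries, where the ratio of Csf2rb2 over Csf2rb between the treated genotypes became -0.0088. The CPM given to limma also had no TMM factors, so its changes of sign are not separate from those with library size alone. The cause was not tested.

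Leaving out each library in turn gave these ranges where a sign or a call changed. With IMQ in WT, Il6ra had -0.13 to 0.18, Il10ra -0.35 to 0.022, Ifnar1 -0.16 to 0.11, Ifngr2 -0.27 to 0.074 and the log2 ratio of Csf2rb2 over Csf2rb 0.44 to 0.67. With IMQ in Bmal1 Mye-/-, Il4ra had -0.20 to 0.0091, Ifnar2 -0.026 to 0.045, Ifngr1 -0.023 to 0.17 and the ratio of Ifngr1 over Ifngr2 0.33 to 0.59. Between the treated genotypes Il6ra had -0.17 to 0.14, Ifnar2 -0.15 to 0.023, Ifngr1 -0.12 to 0.070, and the ratios of Ifnar1 over Ifnar2 and of Ifngr1 over Ifngr2 -0.44 to -0.27 and -0.016 to 0.34, the latter -0.020 to 0.039 in untreated mice. In the interaction Il6ra had -0.30 to 0.025 and Il10ra -0.36 to 0.012.

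With the replicate block, IMQ in Bmal1 Mye-/- still called 3 members, and among the genes named for that comparison it ended the call of Il6st alone, beside those of the ratios, while the calls among all genes went from 3292 to 3114. For IMQ in WT all 5 correlations were positive (0.0728 to 0.384) but only 4 exceeded 0.1, so the numbers were not taken as pairs. The block there took the calls among all genes from 554 to 190 and ended those of Il20rb, Lepr and Prlr (adjusted p = 0.0953, 0.0736 and 0.0605), while Csf2rb2 stayed called (adjusted p = 0.0130). Tested within the 5 pairs, the log2 ratios were unchanged at 0.56 and 0.64 for Csf2rb2 over Csf2rb in WT and Bmal1 Mye-/-, -0.66 for Ifnar1 over Ifnar2 and 0.50 for Ifngr1 over Ifngr2 in Bmal1 Mye-/-, and their adjusted p of 0.125 is the result of a design that cannot pass.

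Counts over all genes moved more. IMQ in WT called 554 genes, 1494 with DESeq2, 326 with no filter, 186 with only the 2 groups, 2129 without the 2 libraries, 48 without untreated library 2 and 1989 without treated library 5, and limma turned the split from 329 higher and 225 lower to 171 and 432. IMQ in Bmal1 Mye-/- called 3292 genes, and 1612 to 4499 with single libraries left out, with 1612, 1765, 2063, 2160 and 2190 without untreated library 4, treated library 5, untreated library 1, untreated library 2 and treated library 1 of that genotype. Between the treated genotypes 41 genes were called, 310 with DESeq2, 16 with only the 2 groups, 22 without the 2 libraries, 3129 without treated WT library 3 and 280 without treated Bmal1 Mye-/- library 4, and the split of 26 higher and 15 lower became 35 and 12 with library size alone. In untreated mice 29 were called, and 59 with only the 2 groups. With counts thinned to the smallest library, 1 member call was lost, that of Csf2rb2 in Bmal1 Mye-/- (0.41, adjusted p = 0.0517).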
